A study of Homo sapiens with 12 samples.

Results

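The 10 genes of de novo purine and pyrimidine synthesis described here are PPAT, GART, PFAS, PAICS, ATIC, IMPDH2, GMPS, CAD, DHODH and UMPS. They were taken from the count tables by gene symbol and are 10 of the 22257 genes there. The set was drawn up with earlier results of these data known. All 10 passed the filter on low counts. The RNA came from LN229 cells, an established line from a human glioblastoma, and made up 12 libraries in 3 groups of 4 replicates. The groups were cells in 10 mM glucose, cells in 1 mM glucose with 5 mM acetate, and cells in 1 mM glucose alone. Every group was kept for 24 hours in RPMI medium with dialyzed serum, so what differed was the supply of glucose and acetate. The cells are 1 line at 1 time point. No label says that replicates came from separate cultures, so a p-value here covers only the spread among these samples, and that spread may be technical.

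Cells build purine rings step by step on phosphoribosyl pyrophosphate (PRPP), a sugar phosphate made from the pentose phosphate branch of glucose metabolism. The purine route ends in IMP, from which separate branches lead to AMP and to GMP. Pyrimidine rings are built first, from glutamine, bicarbonate and aspartate, and are joined to PRPP afterwards to give UMP. Both routes draw on glutamine and aspartate, and the purine route also takes 1-carbon units carried by folate. Proliferating tumour cells, glioblastoma among them, are known for heavy use of these routes, and the transcription factor MYC is known to raise many of their genes.

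Each library held 24.4 to 27.2 M counts (M, mega), and levels are given as counts per M (CPM) scaled by edgeR's TMM factors. The cells expressed the mesenchymal and glial marker VIM at 3685 to 5973 CPM, while the astrocyte marker GFAP was at 0.739 to 1.47 CPM. Of the markers of other cell types, EPCAM had 0 counts in 10 libraries, and the leukocyte marker PTPRC was at most 0.733 CPM. Markers moved with the groups. CD68, which non-myeloid cells also express, averaged 20.4 ± 1.91 CPM at 10 mM glucose, 65 ± 3.37 CPM in acetate and 58.5 ± 4.51 CPM at 1 mM glucose (SD, n = 4 each). It made up most of the summed level of the 9 markers of other cell types, which was 20.6 to 24.2 CPM at 10 mM glucose, 64.2 to 71.5 CPM in acetate and 56.1 to 67 CPM at 1 mM glucose. Of the 10 glioblastoma and glial markers, 4 were called higher and 4 lower at 10 mM against 1 mM glucose in edgeR, and their sum was 5936 to 6046 CPM at 10 mM glucose, 6058 to 6503 CPM in acetate and 6460 to 7723 CPM at 1 mM glucose. PDGFRA and SOX2 were higher by 2.94 and 2.40 on the log2 scale, and OLIG2 fell by 1.56. The part of these shifts in the results below was not tested. Replicate 3 of 1 mM glucose and replicate 1 of acetate stood apart: the rank correlation of their log2 levels, relative to the mean of all libraries, with transcript length was −0.486 and −0.481. It lay between −0.178 and 0.228 in the other 10 libraries. Results that rest on these libraries are given with and without them.

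At 10 mM against 1 mM glucose, genes of these routes were called in both directions. In edgeR's quasi-likelihood test, with Benjamini-Hochberg adjustment over all 14416 genes tested and a threshold of 0.05, 5 genes were called lower: IMPDH2, ATIC, PPAT, GART and DHODH. In the same test 4 were called higher: PAICS, UMPS, PFAS and GMPS. CAD was not called. The background was high, since 67.5% of all genes tested were called in this comparison, 33.7% higher and 33.8% lower. The count of 9 members called is to be read against that share. With the trend of fold change on transcript length and GC content removed, the tally was 1 higher, PAICS, and 6 lower. CAD was added to the 5 lower genes named above, and PFAS, GMPS and UMPS were not called. Over all genes, 10493 were called in that setting, in place of 9725, and 51.1% of the 10493 were higher. For 9 members no library of one group fell in the range of the other, as for 61.5% of all genes. The median log2 fold change of the 10 members was −0.14, against 0.00 over all genes, whose quartiles were −0.37 and 0.39. Fewer cells and less RNA per cell cannot be told apart in such bulk libraries, and every level is relative to the other genes of its library.

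**Figure D1:**
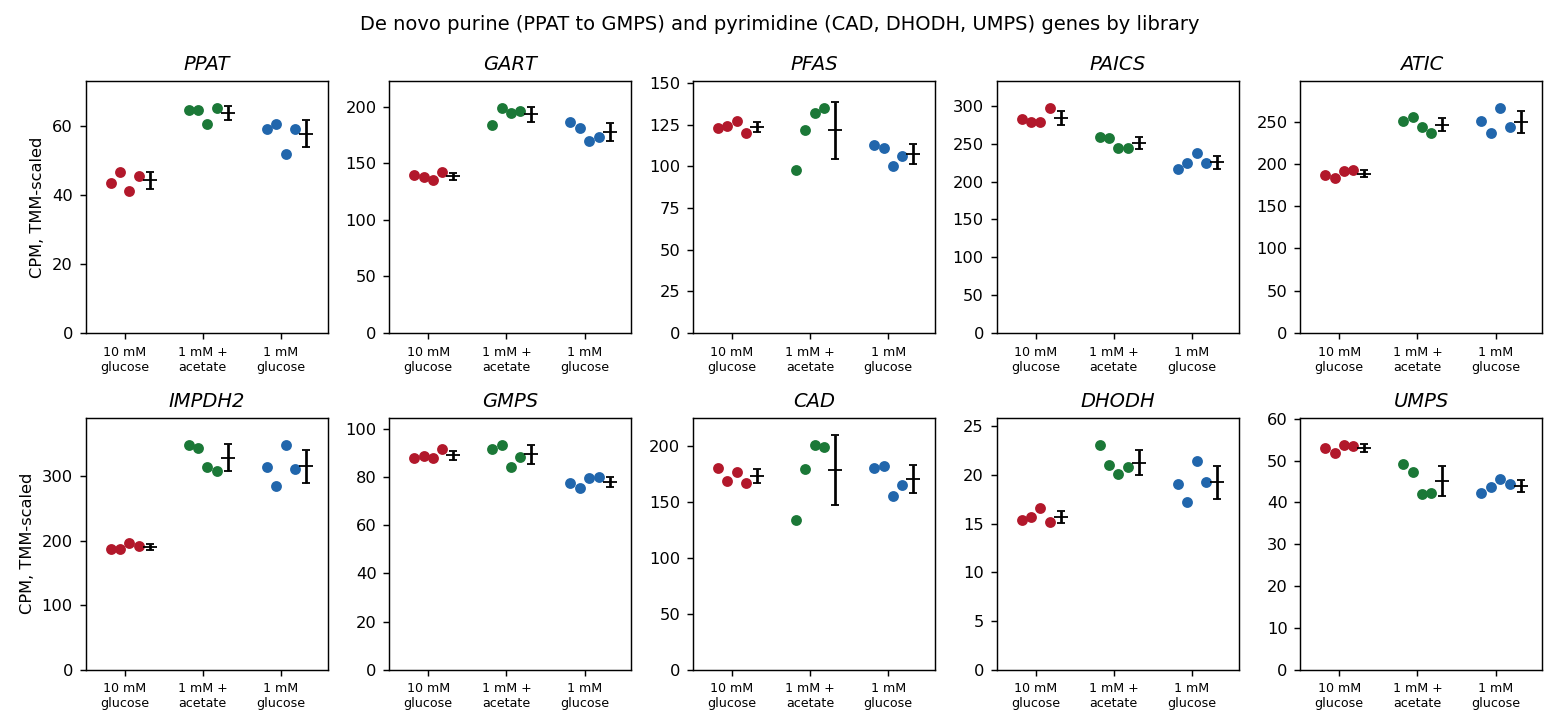
Level of each of the 10 genes in each library, in TMM-scaled CPM on axes that start at 0, for 10 mM glucose (red), 1 mM glucose with acetate (green) and 1 mM glucose (blue); bars are mean ± SD of 4 replicates. The 10 mM libraries lie below both other groups for PPAT, GART, ATIC, IMPDH2 and DHODH, and above both for PAICS and UMPS.

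PPAT encodes the amidotransferase that catalyses the first committed step of purine synthesis. PPAT had 43.6, 46.6, 41.3 and 45.6 CPM at 10 mM glucose, 64.6, 64.6, 60.8 and 65.3 CPM with acetate, and 59.3, 60.7, 52.0 and 59.1 CPM at 1 mM glucose. All 10 mM libraries were below all libraries of the other groups. Its log2 fold change at 10 mM against 1 mM glucose was −0.38 ± 0.06 (SE; edgeR adjusted p = 5e-05). PAICS, whose protein carries out the carboxylation and the following SAICAR-forming step later in the route, moved the other way. PAICS had 282, 278, 279 and 297 CPM at 10 mM glucose, 259, 257, 244 and 244 CPM with acetate, and 216, 224, 237 and 224 CPM at 1 mM glucose. The 3 groups did not overlap, with 10 mM glucose highest and 1 mM glucose lowest. The log2 fold change of PAICS at 10 mM against 1 mM glucose was 0.33 ± 0.05 (SE; edgeR adjusted p = 2.4e-05).

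PPAT and PAICS are neighbours, and their RefSeq starts lie head to head on chromosome 4, 137 bases apart, between the start of PPAT on the minus strand and the second of 3 listed starts of PAICS on the plus strand. The stretch common to their start windows is shown because the genes that flank it moved in opposite directions. It is given below on the plus strand of GRCh38.p14, from RefSeq, at chr4:56435566-56435801, with the E-box CACGTG, the motif bound by MYC-MAX, in capitals.
PPAT-PAICS: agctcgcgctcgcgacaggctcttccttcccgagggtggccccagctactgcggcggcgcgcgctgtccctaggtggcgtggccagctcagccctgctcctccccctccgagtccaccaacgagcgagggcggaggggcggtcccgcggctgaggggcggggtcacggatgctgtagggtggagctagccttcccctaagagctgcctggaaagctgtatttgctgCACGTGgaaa
This stretch is 236 bases long with a GC content of 68.6%. Its 1 E-box begins at position −182 relative to the PPAT start and at position 41 relative to the PAICS start, counting the start base as 1 with no position 0. It is thus upstream of PPAT and downstream of the PAICS start.

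**Figure D2:**
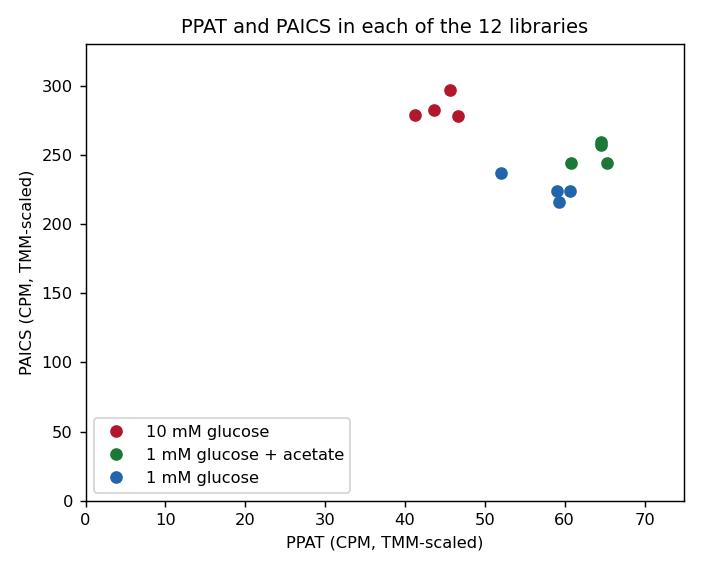
Level of PPAT (x axis) and PAICS (y axis) in each of the 12 libraries, both in TMM-scaled CPM, for 10 mM glucose (red), 1 mM glucose with acetate (green) and 1 mM glucose (blue). The 10 mM libraries lie at the upper left, with more PAICS and less PPAT than any other library.

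The ratio of PAICS to PPAT counts showed the split within each library. It was 6.47, 5.96, 6.76 and 6.5 at 10 mM glucose, 4.00, 3.98, 4.02 and 3.74 with acetate, and 3.64, 3.69, 4.56 and 3.79 at 1 mM glucose. Every 10 mM library had a higher ratio than every other library. The acetate and 1 mM libraries overlapped, also without replicate 3 of 1 mM glucose, a library that stood apart and had the highest ratio of its group, 4.56. The pair was singled out for its opposite moves, so the ratio is a description and was not tested. PAICS has 7 named pseudogenes and PPAT has 2, and reads shared with such copies could not be assigned from these counts. PPAT exons also overlap 121 bases of a long noncoding RNA on the other strand, and the strand setting of the counting is not given in the sources used here.

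GART encodes a protein with 3 enzyme activities of the purine route, and PFAS encodes the synthase that uses glutamine to make the FGAM intermediate. GART had 140, 138, 135 and 142 CPM at 10 mM glucose, 184, 199, 195 and 196 CPM with acetate, and 187, 181, 170 and 173 CPM at 1 mM glucose. The 10 mM libraries were below all others, and the log2 fold change against 1 mM glucose was −0.36 ± 0.05 (SE; edgeR adjusted p = 1.3e-05). A shorter GART transcript, which codes for 1 of the 3 activities, was also in the tables. Its count was 66.2 ± 1.88% of the full transcript's count at 10 mM glucose, 64.7 ± 1.88% in acetate and 64.3 ± 1.72% at 1 mM glucose (SD, n = 4 each), and the 3 ranges overlapped. The shorter form fell as well, with a log2 fold change of −0.31 ± 0.06 at 10 mM against 1 mM glucose (SE; edgeR adjusted p = 3.3e-04 over 24528 transcripts). Transcripts of a gene share reads here, so the forms are not independent. GART exons overlap 275 bases of SON on the other strand, and reads of the 2 genes there cannot be told apart.

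PFAS had 123, 124, 127 and 120 CPM at 10 mM glucose, 97.6, 122, 132 and 135 CPM with acetate, and 113, 111, 100 and 106 CPM at 1 mM glucose. The 10 mM libraries were above all 1 mM libraries, while the acetate libraries spread across both. The log2 fold change at 10 mM against 1 mM glucose was 0.20 ± 0.08 (SE; edgeR adjusted p = 0.043), a call close to the threshold. It was lost when single libraries were left out: edgeR's adjusted p was 0.095 and 0.0928 without 1 mM replicates 3 and 4, 0.0568 without acetate replicate 2, and 0.073, 0.0789, 0.0936 and 0.059 without 10 mM replicates 1, 2, 3 and 4. With the trend of fold change on transcript length and GC content removed, the log2 fold change was 0.06 (edgeR adjusted p = 0.248).

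ATIC encodes the bifunctional enzyme that adds the last folate-borne carbon and closes the ring to IMP. ATIC had 187, 183, 191 and 193 CPM at 10 mM glucose, 251, 255, 243 and 237 CPM with acetate, and 251, 236, 266 and 244 CPM at 1 mM glucose. All 10 mM libraries were the lowest, and the acetate and 1 mM libraries overlapped. Its log2 fold change at 10 mM against 1 mM glucose was −0.40 ± 0.05 (SE; edgeR adjusted p = 5e-06).

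IMPDH2 encodes IMP dehydrogenase, the rate-limiting enzyme of the branch to GMP, and it showed the largest change among the 10 genes. IMPDH2 had 187, 187, 197 and 192 CPM at 10 mM glucose, 349, 344, 314 and 308 CPM with acetate, and 315, 285, 349 and 312 CPM at 1 mM glucose. The highest 10 mM library, at 197 CPM, was well below the lowest of the others, at 285 CPM. At 10 mM against 1 mM glucose its log2 fold change was −0.72 ± 0.06, or 1.65-fold lower (SE; edgeR adjusted p = 1.4e-07), at the 11.5th percentile of all genes tested. IMPDH1, the other IMP dehydrogenase gene, moved the other way: it averaged 86.1 ± 2.83 CPM at 10 mM glucose, 65.9 ± 0.736 CPM in acetate and 72.1 ± 8.7 CPM at 1 mM glucose (SD, n = 4 each). Its log2 fold change at 10 mM against 1 mM glucose was 0.26 ± 0.07 (SE; edgeR adjusted p = 0.005), although the libraries of these 2 groups overlapped. IMPDH2 exons overlap 93 bases of an antisense gene.

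GMPS encodes GMP synthetase, which follows IMP dehydrogenase. GMPS had 87.7, 88.6, 88.1 and 91.5 CPM at 10 mM glucose, 91.8, 93.4, 84.3 and 88.2 CPM with acetate, and 77.5, 75.3, 79.4 and 79.9 CPM at 1 mM glucose. The 1 mM libraries were the lowest, and the other groups overlapped. At 10 mM against 1 mM glucose the log2 fold change of GMPS was 0.19 ± 0.05 (SE; edgeR adjusted p = 0.0027), but 0.02 (adjusted p = 0.898) with the length and GC trend removed. GMPS has 1 named pseudogene. In the branch to AMP, ADSS, the adenylosuccinate synthetase, fell by 0.32 on the log2 scale (SE 0.05, edgeR adjusted p = 7e-05). ADSL, the lyase that acts both in this branch and before ATIC, fell by 0.54 (SE 0.06, edgeR adjusted p = 3.1e-06).

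CAD encodes the large protein that carries the first 3 enzyme activities of pyrimidine synthesis. CAD had 180, 169, 177 and 167 CPM at 10 mM glucose, 134, 179, 201 and 199 CPM with acetate, and 180, 182, 155 and 165 CPM at 1 mM glucose. The groups overlapped, and the lowest values were those of acetate replicate 1 and 1 mM replicate 3, the libraries that stood apart. At 10 mM against 1 mM glucose the log2 fold change of CAD was 0.02 ± 0.10 (SE; edgeR adjusted p = 0.85), with a 95% interval of −0.18 to 0.22. It was −0.02 without both of these libraries, and −0.17 (edgeR adjusted p = 0.00541) with the length and GC trend removed.

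DHODH encodes the mitochondrial enzyme that oxidises dihydroorotate. DHODH had 15.4, 15.7, 16.6 and 15.2 CPM at 10 mM glucose, 23.1, 21.0, 20.1 and 20.8 CPM with acetate, and 19.1, 17.2, 21.4 and 19.3 CPM at 1 mM glucose. The 10 mM libraries were below all others, by a small margin over 1 mM replicate 2. The log2 fold change at 10 mM against 1 mM glucose was −0.29 ± 0.07 (SE; edgeR adjusted p = 0.0023), and −0.15 (edgeR adjusted p = 0.0813) when libraries were scaled by their totals alone. That scaling moved the median of all genes by 0.14 on the log2 scale in this comparison.

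UMPS encodes the enzyme that joins orotate to PRPP and makes UMP. UMPS had 53.1, 51.8, 53.8 and 53.6 CPM at 10 mM glucose, 49.2, 47.2, 42.0 and 42.3 CPM with acetate, and 42.2, 43.6, 45.5 and 44.3 CPM at 1 mM glucose. Its 10 mM libraries were the highest, and the acetate libraries overlapped those at 1 mM. For UMPS the log2 fold change at 10 mM against 1 mM glucose was 0.27 ± 0.06 (SE; edgeR adjusted p = 7.5e-04), and 0.12 (edgeR adjusted p = 0.285) with the length and GC trend removed. The transcript marked for UMPS is a non-coding one with nearly the same count as the coding one, and the 3 listed UMPS transcripts were at 0.28 to 0.29 in the fit over transcripts. Of the CTP synthases, which act on the UTP made from UMP, CTPS had a log2 fold change of 0.01 ± 0.05 (SE; edgeR adjusted p = 0.82). CTPS2 averaged 12 ± 1.47 CPM at 10 mM glucose against 7.73 ± 0.667 CPM at 1 mM glucose (SD, n = 4 each), a rise of 0.63 ± 0.10 on the log2 scale (SE; edgeR adjusted p = 6.3e-05).

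**Figure D3:**
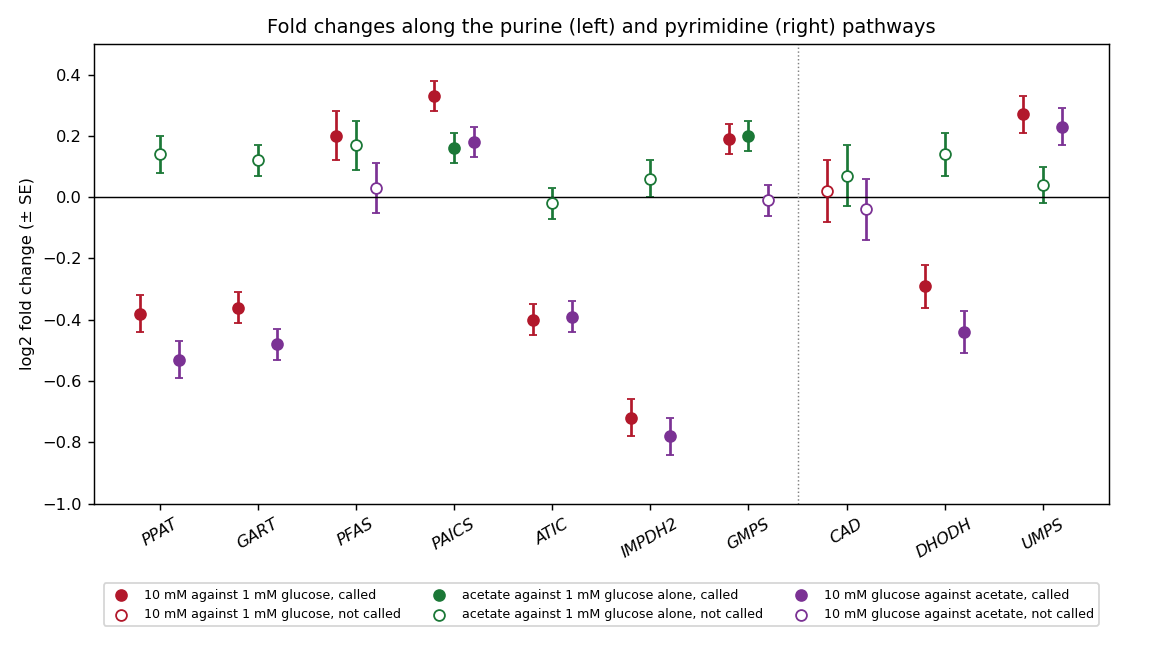
Log2 fold change with SE for each gene in route order, for 10 mM against 1 mM glucose (red), acetate against 1 mM glucose alone (green) and 10 mM glucose against acetate (purple); filled points were called at an adjusted p under 0.05 in edgeR and open points were not. PPAT, GART, ATIC, IMPDH2 and DHODH lie below 0 in both comparisons that hold 10 mM glucose, and PAICS and UMPS lie above 0 in both.

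Acetate against 1 mM glucose alone moved few of these genes. In edgeR's test 2 of the 10 were called, PAICS and GMPS, both higher, against 13.7% of all genes tested, 6.65% higher and 7.09% lower. The groups did not overlap for 3 members, PPAT, PAICS and GMPS, against 15.6% of all genes. For PPAT the margin was very small, with the lowest acetate library at 60.8 CPM and the highest 1 mM library at 60.7 CPM. The members' median log2 fold change was 0.13, with 0.00 over all genes and quartiles of −0.12 and 0.13. The log2 fold change of GMPS was 0.20 ± 0.05 (SE; edgeR adjusted p = 0.014). It was called in 20 of 24 alternative settings, and its adjusted p was 0.0528 without acetate replicate 2 and 0.478 with the length and GC trend removed.

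The acetate log2 fold change of PAICS was 0.16 ± 0.05 (SE; edgeR adjusted p = 0.045), close to the threshold, and it was called in 8 of 24 alternative settings. Its call ended on leaving out any single library other than 1 mM replicate 3: edgeR's adjusted p was 0.128, 0.0648 and 0.109 without 1 mM replicates 1, 2 and 4, and 0.0576, 0.123, 0.067 and 0.0703 without acetate replicates 1 to 4. Without 10 mM replicates 1 to 4, which belong to neither group compared, it was 0.0663, 0.0656, 0.064 and 0.0554. PPAT, with a log2 fold change of 0.14 ± 0.06, was not called (edgeR adjusted p = 0.13).

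The other members also missed the threshold, and the 95% intervals, not adjusted over genes, bound the change at this spread. Those of PPAT (0.03 to 0.26), GART (0.03 to 0.22) and PFAS (0.01 to 0.34) lay above 0. That of DHODH ran from 0.00 to 0.28. Intervals spanned 0 for UMPS (−0.07 to 0.16), IMPDH2 (−0.06 to 0.19), ATIC (−0.12 to 0.08) and CAD. For IMPDH2 the log2 fold change was 0.06 ± 0.06 (SE; edgeR adjusted p = 0.57) and for ATIC it was −0.02 ± 0.05 (SE; edgeR adjusted p = 0.85). For CAD it was 0.07 ± 0.10 (SE; edgeR adjusted p = 0.71), with a 95% interval of −0.13 to 0.27. PFAS and CAD had their lowest level of any library in acetate replicate 1. Without that library the acetate log2 fold change of PFAS was 0.27 (edgeR adjusted p = 0.00487) and that of GART was 0.15 (edgeR adjusted p = 0.0437). Without both libraries that stood apart, 4 members were called, all higher. GART at 0.13 (edgeR adjusted p = 0.0437) and PFAS at 0.23 (edgeR adjusted p = 0.00162) joined PAICS and GMPS. Calls over all genes rose too in that setting, to 3728 from 1980, and 50.5% of the 3728 were higher.

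The comparison of 10 mM glucose with acetate shares its libraries with the other comparisons and sets the added glucose against the added acetate. In edgeR's test 5 members were lower at 10 mM glucose, IMPDH2, PPAT, GART, DHODH and ATIC, and 2 were higher, UMPS and PAICS. With the length and GC trend removed, 1 was higher, PAICS, and 6 were lower, CAD among them. Over all genes, 10103 were called in that setting, in place of 9049, and 52.1% of the 10103 were higher. Without that removal the background share was 62.8%, with 31% of all genes higher and 31.8% lower. Groups did not overlap for 7 members, against 61% of all genes. The members' median log2 fold change was −0.21, with 0.00 over all genes and quartiles of −0.33 and 0.33. IMPDH2 had a log2 fold change of −0.78 ± 0.06 (SE; edgeR adjusted p = 8.3e-08), or 1.72-fold lower, and PPAT one of −0.53 ± 0.06 (SE; edgeR adjusted p = 2.6e-06). These were the members with the widest gap between the groups. GART was at −0.48 ± 0.05, DHODH at −0.44 ± 0.07 and ATIC at −0.39 ± 0.05 on the same scale. UMPS was at 0.23 ± 0.06 (edgeR adjusted p = 0.0029) and PAICS at 0.18 ± 0.05 (edgeR adjusted p = 0.0051). PFAS, at 0.03 ± 0.08, and GMPS, at −0.01 ± 0.05, were not called. CAD, at −0.04 ± 0.10 (edgeR adjusted p = 0.72), was at −0.16 without acetate replicate 1 (edgeR adjusted p = 0.0423).

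Summed over the 10 genes, the level was 1301 ± 15.1 CPM at 10 mM glucose, 1539 ± 32.6 CPM in acetate and 1444 ± 27.4 CPM at 1 mM glucose (SD, n = 4 each). The 7 purine genes made up 1059 ± 16.1 CPM at 10 mM glucose, 1294 ± 29 CPM in acetate and 1211 ± 33.4 CPM at 1 mM glucose. For the 3 pyrimidine genes the sum was 242 ± 6.96 CPM, 245 ± 26.5 CPM and 233 ± 9.96 CPM in the same groups. The purine sum was thus lowest at 10 mM glucose, and the pyrimidine sums lay within the spread of the acetate libraries. PAICS and IMPDH2 have the most counts among these genes and weigh most in such sums.

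Levels can be compared between genes only per length, here in mean CPM per kilobase of coding sequence. At 1 mM glucose IMPDH2 stood at 204 ± 17, PAICS at 177 ± 6.82 and ATIC at 140 ± 7.17 (SD, n = 4 each). At 10 mM glucose PAICS was first on this scale, at 223 ± 6.93, before IMPDH2 at 124 ± 3.1 and ATIC at 106 ± 2.5. The order of these 3 genes thus differed between the groups. GART followed at 45.8 ± 0.986 at 10 mM glucose against 58.7 ± 2.55 at 1 mM glucose. At 1 mM glucose GMPS (37.5 ± 1.01) and PPAT (37.3 ± 2.52) did not differ beyond their spread, nor did PFAS (26.8 ± 1.45) and CAD (25.5 ± 1.92). UMPS lay between those pairs, at 30.5 ± 0.957. DHODH was the lowest, at 13.3 ± 0.522 at 10 mM glucose and 16.2 ± 1.45 at 1 mM glucose. The order depends on the length used. Per kilobase of whole transcript, IMPDH2 stayed first at 10 mM glucose, at 116 ± 2.91, and PAICS stood at 85.1 ± 2.65. Lengths were taken from a later annotation than the counts.

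Promoter windows of 300 bases were at hand for 9 of the 10 genes, with none for IMPDH2. Only the last 50 bases of a window lay from the start on, and sequence beyond the windows was not searched. The E-box CACGTG, which reads the same on both strands, was in a window of 4 of these 9 genes: PPAT, PAICS, ATIC and DHODH. It was in a window of 8.77% of all 27305 genes with a window. The matches of PPAT and PAICS are the same 1 E-box, in the shared stretch printed above, so they are not independent. The ATIC and DHODH windows are printed because they hold the other E-boxes, on the plus strand of GRCh38.p14 from RefSeq at chr2:215311809-215312108 and chr16:72008494-72008793, with CACGTG in capitals.
ATIC: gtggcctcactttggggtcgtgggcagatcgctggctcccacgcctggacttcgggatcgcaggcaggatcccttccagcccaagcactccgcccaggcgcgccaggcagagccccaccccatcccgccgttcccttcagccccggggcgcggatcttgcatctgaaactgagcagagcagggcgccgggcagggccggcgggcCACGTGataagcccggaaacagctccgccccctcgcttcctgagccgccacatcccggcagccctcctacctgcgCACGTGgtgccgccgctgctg
DHODH: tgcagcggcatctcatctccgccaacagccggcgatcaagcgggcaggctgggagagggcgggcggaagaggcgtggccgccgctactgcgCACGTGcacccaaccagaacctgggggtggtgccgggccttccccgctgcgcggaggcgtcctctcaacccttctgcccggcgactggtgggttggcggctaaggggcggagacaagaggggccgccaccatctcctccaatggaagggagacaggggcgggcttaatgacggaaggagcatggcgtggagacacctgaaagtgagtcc
In ATIC the motif begins at positions −46 and 30 relative to the start, and in DHODH at position −159. Of the 4 genes, PPAT, ATIC and DHODH were lower at 10 mM glucose and PAICS was higher, with the log2 fold changes given above. Searched on both strands, the ATF4 composite element TGATGNAA was in none of the 9 (4.46% of all genes) and the E2F element TTTNGCGC was in 1, GART (2.17%). The NRF1 element (GCGC, any base, then TGCGC) was in 1, PAICS (6.98%), and the NF-Y box CCAAT was in 3, GART, CAD and DHODH (39.7%). A match is a run of letters and not a measured site. GART and PAICS have several listed starts, hence more windows than the others.

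Likeness was measured as the root mean square difference of centred log2 CPM over the 12 libraries, among 11180 other genes with a mean of at least 5 CPM. The profiles closest to that of PPAT were those of MTRR (0.0438), ZNF33B (0.0508) and LRPPRC (0.0513). MTRR averaged 66 ± 1.98 CPM at 10 mM glucose, 93 ± 2.44 CPM in acetate and 87.1 ± 4.79 CPM at 1 mM glucose (SD, n = 4 each). Its 10 mM libraries, like those of PPAT, were below all others. Closest to CAD were TUBGCP6 (0.0473), ZNF592 (0.0567) and RPTOR (0.0597). These 3 genes and CAD were called in no comparison, so their likeness is one of spread among libraries and not of a change between groups. RPTOR averaged 190 ± 25.4 CPM with acetate, a wide spread like that of CAD in that group. Among the members the nearest to PPAT was GART (0.0615) and the nearest to CAD was PFAS (0.0848). Both PFAS and CAD had their lowest level in acetate replicate 1, a library that stood apart.

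The genes that feed the routes, or share their substrates, were grouped in lists by role, and their counts at 10 mM against 1 mM glucose stand against the 33.7% of all genes called higher and 33.8% called lower. PRPP is made by PRPS1 and PRPS2, and both rose at 10 mM against 1 mM glucose: PRPS1 by 0.29 ± 0.05 and PRPS2 by 0.34 ± 0.06 on the log2 scale (SE; edgeR adjusted p = 1.7e-04 and 1.6e-04). Their associated proteins PRPSAP1 and PRPSAP2 were not called, and the median of the 4 genes was 0.14. Of 6 remaining synthesis enzymes, 2 were higher (IMPDH1 and CTPS2), 2 were lower (ADSL and ADSS) and 2 were not called, with a median of 0.13. Of 9 nucleotide kinases tested, 2 were higher, 4 were lower and 3 were not called, with a median of −0.17. AK4, a mitochondrial adenylate kinase, averaged 65.3 ± 0.88 CPM at 10 mM glucose, 29.9 ± 1.74 CPM in acetate and 25.3 ± 1.36 CPM at 1 mM glucose (SD, n = 4 each). Its 10 mM level was far above the spread of the others, at a log2 fold change of 1.37 ± 0.06 (SE; edgeR adjusted p = 4.2e-11).

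The steps that turn ribonucleotides into DNA precursors were mostly higher at 10 mM glucose. Of 7 genes, 5 rose, 1 fell and 1 was not called, and the list median was 0.69 on the log2 scale. TYMS, thymidylate synthase, averaged 225 ± 9 CPM at 10 mM glucose, 113 ± 9.15 CPM in acetate and 101 ± 12.8 CPM at 1 mM glucose (SD, n = 4 each), and rose by 1.15 ± 0.08 against 1 mM glucose on the log2 scale (SE; edgeR adjusted p = 1.3e-08). The ribonucleotide reductase subunits RRM1 and RRM2 rose by 0.69 and 0.84. DUT rose by 0.48, while DCTD, the dCMP deaminase, fell by 0.32.

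Salvage enzymes, which recycle bases and nucleosides, were split. Of 7 purine salvage genes 1 rose and 4 fell (median −0.18), and of 7 pyrimidine salvage genes tested 3 rose and 3 fell (median 0.04). PNP, the purine nucleoside phosphorylase, fell by 0.84 on the log2 scale and ADK, adenosine kinase, by 0.43. TK1, the S-phase thymidine kinase, rose by 0.83 and DCK, deoxycytidine kinase, by 0.44. HPRT1, the main purine base salvage enzyme, was at −0.18 ± 0.07 (SE; edgeR adjusted p = 0.033), and its adjusted p was 0.0547 and 0.109 without 1 mM replicates 3 and 4 and 0.0799, 0.0801 and 0.0658 without 10 mM replicates 1, 2 and 3. APRT, the adenine salvage enzyme, was at −0.29 ± 0.12 (SE; edgeR adjusted p = 0.037), and its adjusted p was 0.0531 and 0.132 without 1 mM replicates 1 and 3 and 0.082, 0.0767 and 0.0994 without 10 mM replicates 1, 2 and 4. UCK2, uridine-cytidine kinase, was at −0.13 ± 0.05 (SE; edgeR adjusted p = 0.036), and its adjusted p was 0.0575 and 0.098 without 1 mM replicates 1 and 3 and 0.0564, 0.0992, 0.0566 and 0.0576 without 10 mM replicates 1 to 4. The calls of these 3 genes were thus close to the threshold and were lost without any 1 of the several libraries named. With scaling by library totals UCK2 was at 0.01. Of 11 breakdown and interconversion genes tested, 2 rose and 6 fell (median −0.22), from GMPR at 0.54 and SAMHD1 at 0.41 to NT5C2 at −0.76 and NT5C3 at −1.08.

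Folate enzymes, which supply the 1-carbon units, included larger changes than any of the 10 synthesis genes showed. Of 7 tested, 2 rose and 5 fell, and the list median was −1.22 on the log2 scale. The mitochondrial enzyme gene MTHFD2 averaged 146 ± 3.94 CPM at 10 mM glucose, 616 ± 22.4 CPM in acetate and 726 ± 17.2 CPM at 1 mM glucose (SD, n = 4 each). Its log2 fold change at 10 mM against 1 mM glucose was −2.31 ± 0.05 (SE; edgeR adjusted p = 4.7e-14). SHMT2, the mitochondrial serine hydroxymethyltransferase, fell by 1.45, and MTHFD1L by 1.22, whereas their cytosolic counterparts SHMT1 and MTHFD1 rose by 0.99 and 0.23. Among genes of aspartate and glutamine supply, GOT1 and ASNS fell. ASNS, which uses both amino acids, fell by 2.19. GOT1, which makes cytosolic aspartate, averaged 70 ± 1.69 CPM at 10 mM glucose, 215 ± 17.4 CPM in acetate and 270 ± 9.53 CPM at 1 mM glucose (SD, n = 4 each), a fall of 1.95 on the log2 scale.

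**Figure D4:**
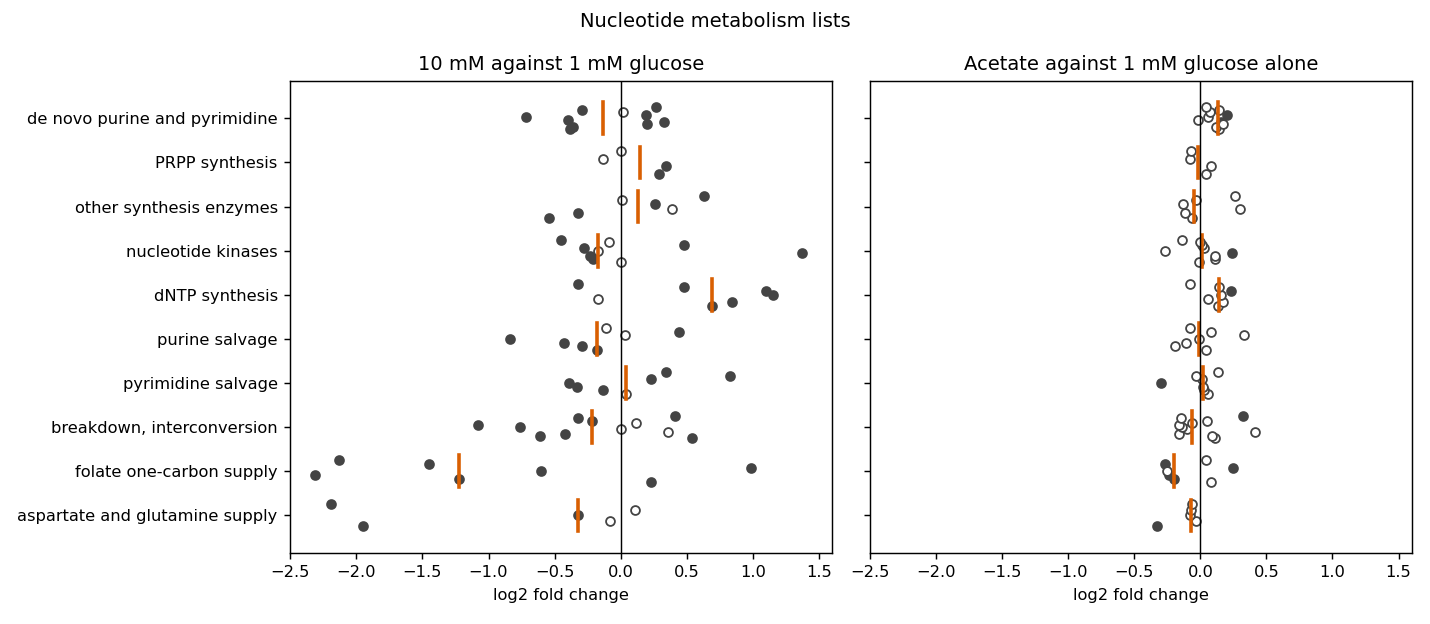
Log2 fold change of every tested gene of the nucleotide lists for 10 mM against 1 mM glucose (left) and acetate against 1 mM glucose alone (right); filled points were called in edgeR, open points were not, and orange lines are list medians. The median of the dNTP list is 0.69 and that of the folate list is −1.22 at 10 mM glucose, while no list median passes 0.20 in size with acetate.

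With acetate, few genes of these lists were called against 1 mM glucose alone. Called genes included AK4 (0.24), SAMHD1 (0.32) and SHMT1 (0.25), higher, and UPP1 (−0.30), GOT1 (−0.33), MTHFD1L (−0.20), MTHFD2 (−0.24) and SHMT2 (−0.27), lower, all as log2 fold changes. The folate list thus had 1 higher and 3 lower of 7, with a median of −0.20. In edgeR the calls of AK4, SAMHD1, SHMT1 and UPP1 were lost without single libraries. The adjusted p of AK4 was 0.052 without acetate replicate 4. For SAMHD1 it was 0.0597 and 0.075 without 1 mM replicates 3 and 4 and 0.0988, 0.0829 and 0.0836 without acetate replicates 2, 3 and 4. For UPP1 it was 0.0617 without 1 mM replicate 1 and 0.0533, 0.0572 and 0.0732 without acetate replicates 2, 3 and 4. SHMT1 was the least stable: its adjusted p was 0.131, 0.0881 and 0.0998 without 1 mM replicates 1, 2 and 4, 0.0719, 0.0892 and 0.102 without acetate replicates 1, 2 and 4, and 0.0621, 0.0627, 0.0609 and 0.0623 without 10 mM replicates 1 to 4.

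All 6 regulators with textbook links to these enzymes were called at 10 mM against 1 mM glucose, 3 higher and 3 lower, where 67.5% of all genes tested were called. MYC averaged 19.8 ± 1.09 CPM at 10 mM glucose, 93.8 ± 2.19 CPM in acetate and 125 ± 8.73 CPM at 1 mM glucose (SD, n = 4 each). Its paralogue MYCN averaged 21 ± 0.613 CPM at 10 mM glucose, 4.22 ± 0.681 CPM in acetate and 3.09 ± 0.687 CPM at 1 mM glucose. The log2 fold change at 10 mM against 1 mM glucose was −2.66 ± 0.06 for MYC and 2.76 ± 0.13 for MYCN (SE; edgeR adjusted p = 1.6e-13 and 1e-10). MAX, the partner of both, fell by 0.75, and ATF4, an amino acid stress factor, fell by 1.67. E2F1, a cell cycle factor, rose by 0.35, and RPS6KB1, the kinase that phosphorylates CAD, rose by 0.22. With acetate, MYC fell by 0.41 on the log2 scale (edgeR adjusted p = 4.1e-04), while MYCN was at 0.44 (edgeR adjusted p = 0.055). MYCN passed the threshold without 1 mM replicate 3 (edgeR adjusted p = 0.00687) or without acetate replicate 1 (0.0384).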

How the data were processed

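The authors deposited raw counts per RefSeq transcript, as whole numbers without normalization, in 1 table per library, per the file headers and values. The build was hg19, per the submitters' processing notes. The aligner, counting program and strand setting were not given in the sources used here. The transcript marked in the tables stood for its gene. CAD had no mark, so its transcript with the highest total was used.

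After filterByExpr and TMM scaling, the quasi-likelihood F test of edgeR 4.0.16 (R 4.3.3) was run on all 12 libraries, with 1 mean per group. Log2 fold changes are the first-named group over the second, and SE comes from the F statistic. The adjusted p is Benjamini-Hochberg over 14416 genes. The common biological coefficient of variation was 8.51%. The pipeline was tested on simulated counts. A set of 24 alternatives was run, with limma 3.58.1 and DESeq2 1.42.0 among them.

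Members and lists were chosen with earlier results of these data known. All members were named, as were the called genes of lists with at most 10 tested (otherwise the 2 highest and 2 lowest), a few fixed genes, and the 3 profiles most like PPAT and CAD. Lengths came from GENCODE and promoters from RefSeq. Some list genes are not reported here by name.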

Additional observations from a re-analysis of the deposited data

Results flagged for a closer look

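In the acetate group, PPAT replicate 3 lay apart from the rest, at 60.8 CPM, against 64.6 to 65.3 CPM in the other 3 replicates. Its gap was 0.838 of the range of the group, above the critical value of 0.829 for 4 samples. Of 30 gene and group combinations checked this was the only one, and chance alone flags about 1 in 20. All acetate libraries, this one included, stayed above the 10 mM and 1 mM glucose libraries for PPAT. The margin over 1 mM replicate 2, at 60.7 CPM, was very small.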

How the results depend on the processing

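DHODH had the fewest counts of the members, 398 to 626 per library. At 10 mM against 1 mM glucose, IMPDH2, ATIC, GART, PPAT and PAICS were called in the same direction in all 24 alternatives, and at 10 mM glucose against acetate so were these 5 and DHODH. With the length and GC trend removed, with or without the replicate block, 1 member was higher and 6 were lower both at 10 mM against 1 mM glucose, in place of 4 and 5, and at 10 mM glucose against acetate, in place of 2 and 5. Over all genes, the trend-removed fit without the block called 10493 and 10103 in these comparisons, in place of 9725 and 9049. Totals over both directions moved by over 1.5 times in the acetate comparison alone. There, in place of 2, the members called were 1 with DESeq2 size factors, with no filter or with the replicate block, 0 with only the 8 libraries compared, and 4 without both libraries that stood apart or with the length and GC trend removed. Leaving out 1 library gave 0 to 3 members. In place of 1980 genes, 1056 were called with the 8 libraries, 3728 without the 2 libraries, 3903 with the trend removed and 3538 with the trend removed and the replicate block. Leaving out 1 library gave 1196 to 2956 genes. Libraries with the same replicate number did not deviate together (r from −0.365 to 0.27, over 0.1 in 3 of 12 pairs), and 5 of 12 libraries correlated best with their own number. The replicate block called 8 members at 10 mM against 1 mM glucose and 7 at 10 mM glucose against acetate, and 9613, 1780 and 8899 genes in the 3 comparisons.

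Scaling by library totals shifted the median log2 fold change of all genes by 0.14 at 10 mM against 1 mM glucose, 0.04 for acetate and 0.10 at 10 mM glucose against acetate, and raised the share of calls that were higher to 63.3%, 65.2% and 60.8%, from 49.9%, 48.4% and 49.4%. Some values changed sign, and the cause was not tested. At 10 mM against 1 mM glucose, UCK2 was 0.01 with library totals and 0.02 with the trend removed, HPRT1 was 0.03 and CAD −0.17 with the trend removed, CAD was −0.02 without 1 mM replicate 3, alone or with acetate replicate 1, and CTPS was 0.00 without 1 mM replicate 1 or 2 or 10 mM replicate 3. For acetate, ATIC was 0.02 with library totals, 0.01 without 1 mM replicate 3 or both libraries, and 0.00 without acetate replicate 4 or with the trend removed. CTPS was 0.00 with library totals, and UMPS 0.00 and HPRT1 −0.01 without acetate replicate 1. At 10 mM glucose against acetate, GMPS was 0.10 with library totals and 0.01 without acetate replicate 1, 2 or both libraries. CAD was 0.06 with totals, 0.02 without acetate replicate 3 and 0.01 without replicate 4. PFAS was −0.07 without acetate replicate 1 or both libraries and −0.10 with the trend removed, and APRT was 0.00 with the trend removed. The trend-removed values were the same with the replicate block. Leaving out 1 library at a time gave log2 fold changes of −0.02 to 0.05 for CAD and 0.00 to 0.03 for CTPS at 10 mM against 1 mM glucose. For acetate it gave −0.04 to 0.01 for ATIC, 0.00 to 0.07 for UMPS and −0.01 to 0.09 for HPRT1. At 10 mM glucose against acetate it gave −0.07 to 0.08 for PFAS, −0.04 to 0.01 for GMPS and −0.16 to 0.02 for CAD.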
